A study of Homo sapiens with 7 samples.

Results

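Gene deserts are stretches of the genome without the start of a protein-coding gene, and chromatin loops that begin and end inside them were counted here in 3 human cancer cell lines. A desert bin was a 1 Mb bin of an autosome of hg19 (GRCh37) in which no transcript of a protein-coding gene starts in GENCODE, and a member was a loop, a pair of different anchors, with both anchor midpoints in such bins. There were 9032 members among 354853 loops of all lists, namely 5388 of 163530 in Ishikawa, 244 of 42097 in T-47D and 3400 of 149226 in LNCaP. The loops came from H3K27ac HiChIP, in which DNA ends held close together in crosslinked chromatin are ligated and those on nucleosomes acetylated at lysine 27 of histone H3, a mark of active promoters and enhancers, are enriched with an antibody and sequenced as read pairs. Ishikawa is an endometrial adenocarcinoma line, T-47D a breast carcinoma line and LNCaP a prostate carcinoma line.

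The 4 Ishikawa samples were 2 cultures given DMSO as vehicle and 2 given 10 nM 17β-estradiol (E2) for 1 h. The 1 T-47D sample and the 2 LNCaP samples carry no treatment in their labels. Each line was deposited as 1 pooled list, so there was no replicate error and no test between lines was possible. The 95% intervals below (Wilson intervals for shares, rank intervals for medians) cover counting error only. They take each loop, anchor or bin as independent, although loops share anchors and deserts, so they are too narrow where members cluster. Ishikawa chromatin was cut with DpnII, and T-47D and LNCaP chromatin with MboI, which recognise the same bases, GATC. The depth, the read length and the way chromatin was sheared changed with the enzyme, and wherever Ishikawa is set beside another line they cannot be told apart from it. Acetylation, contact and copy number of a segment also cannot be told apart in read pairs. Of 9 marker genes of the lines, 8 had the most promoter read pairs relative to the list total in the line they mark, and SPDEF had more in LNCaP than in T-47D.

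Deserts often lie between genes that control development, and enhancers inside them can act on promoters far away. They are rich in A and T, lie largely in compact, late replicating chromatin, and host many long noncoding RNA (lncRNA) genes and pseudogenes. Examples known from other work are the deserts beside SOX9 and MYC, transcription factors of development and of cell growth.

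Of 2897 autosomal bins, 441 were deserts, and 163 of them had no assembled base, as at centromeres. The other 278 held 259 Mb, or 9.65% of the assembled autosomal bases, in 201 separate deserts of which 136 were a single bin. The absence of protein-coding starts was not an absence of genes: 252 desert bins held the start of a lncRNA gene and 27 were crossed by the body of a protein-coding gene that starts elsewhere. In 5 bins the annotation listed immunoglobulin or T cell receptor segments, which it does not class as protein-coding, and 99 members of Ishikawa, 3 of T-47D and 28 of LNCaP had an anchor there. Deserts had 36.4% G and C, against 41.5% in other autosomal sequence.

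The anchors on which the results below turn are shown by 120 bases each, read from the plus strand of GRCh37. The first window is from the T-47D anchor 1142 kb beyond the GATA3 start, the next from the T-47D anchor with the most partners, then come windows from the LNCaP anchor of the strongest loop and from the LNCaP anchor with the most partners, and last from the Ishikawa anchor with the most partners. Each was the stretch of its anchor with the most kinds of motif, so that their presence in it was selected. Capitals mark matches on either strand to the FOXA motif TGTTTAC, the GATA motif AGATAA, the AP-1 motif TGANTCA and the androgen receptor unit AGAACA.
T-47D, chr10:9242266-9242385, intergenic: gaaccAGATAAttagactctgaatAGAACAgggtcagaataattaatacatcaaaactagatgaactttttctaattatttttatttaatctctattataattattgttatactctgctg
T-47D, chr5:117345141-117345260, intron of LINC02147 and LINC02208: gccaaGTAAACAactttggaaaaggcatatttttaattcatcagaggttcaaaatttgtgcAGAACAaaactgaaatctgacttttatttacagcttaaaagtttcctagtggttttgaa
LNCaP, chr3:175196532-175196651, intron of NAALADL2: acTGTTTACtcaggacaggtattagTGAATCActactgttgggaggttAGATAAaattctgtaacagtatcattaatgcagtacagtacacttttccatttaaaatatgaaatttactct
LNCaP, chr5:164632481-164632600, intergenic: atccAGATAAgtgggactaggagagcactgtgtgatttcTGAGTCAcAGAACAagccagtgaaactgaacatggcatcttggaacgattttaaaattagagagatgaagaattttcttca
Ishikawa, chr12:17215982-17216101, intergenic: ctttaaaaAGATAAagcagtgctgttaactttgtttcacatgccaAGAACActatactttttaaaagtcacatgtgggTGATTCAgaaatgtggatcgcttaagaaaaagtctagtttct
Among 2157973 desert windows of 120 bases, 2.20% held a FOXA match, 11.4% a GATA match, 4.05% an AP-1 match and 10.7% the androgen receptor unit. The T-47D window beyond GATA3 held a GATA match and an androgen receptor unit, and the LNCaP window in NAALADL2 held a FOXA, a GATA and an AP-1 match. A match describes the letters and is not evidence of binding.

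The strongest Ishikawa member is shown apart, because its sequence was of another kind. Its larger anchor lies at chr10:42359813-42396845, beside the centromere, and capitals mark tandem copies of the 5-base satellite unit CATTC (its reverse complement on the other strand included).
Ishikawa, chr10:42365303-42365422, intergenic: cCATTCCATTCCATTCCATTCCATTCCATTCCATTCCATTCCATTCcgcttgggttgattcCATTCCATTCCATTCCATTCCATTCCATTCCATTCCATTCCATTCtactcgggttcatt
The whole anchor held 37.7 overlapping matches per kb to 2 adjoining copies of the unit, and 0.111% of desert windows of 120 bases held any. Of 4774 member anchors in Ishikawa, 4 reached 10 matches per kb, and the 12 members that touched them had 499 read pairs, 1.69% of the member read pairs. The highest density was 0.511 per kb in T-47D and 0.764 per kb in LNCaP.

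Loops were fewer in deserts than their length would give in all 3 lists, and by far the fewest in T-47D. Members made up 3.30% of the autosomal loops of Ishikawa (interval 3.21% to 3.38%), 0.586% of those of T-47D (0.517% to 0.664%) and 2.32% of those of LNCaP (2.25% to 2.40%), where deserts hold 9.65% of assembled bases. Per assembled Mb there were 20.8 members in Ishikawa against 65.2 other loops, 0.942 against 17.1 in T-47D, and 13.1 against 58.9 in LNCaP. The density outside deserts was therefore 3.13, 18.1 and 4.49 times that inside. These ratios depend on the rule, because loops with only 1 end in a desert (1011, 229 and 2290) were counted as outside, which lowers the inside value. By single anchors, 5.31% of those of Ishikawa, 1.24% of those of T-47D and 3.09% of those of LNCaP lay in deserts, also below 9.65%. By read pairs the shares were 3.22% in LNCaP, 2.83% in Ishikawa and 0.591% in T-47D. The order of LNCaP and Ishikawa was not stable. Without the desert with the most read pairs in each list, the NAALADL2 bin described below in LNCaP, the shares by read pairs were 2.11% in LNCaP and 2.68% in Ishikawa, and among loops of at least 10 read pairs the shares by loops were 2.69% in LNCaP and 2.13% in Ishikawa. Anchors of any loop of Ishikawa covered 11.9% of desert bases, those of LNCaP 2.05% and those of T-47D 0.273%, against 21.2%, 6.57% and 2.22% elsewhere.

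**Figure D1:**
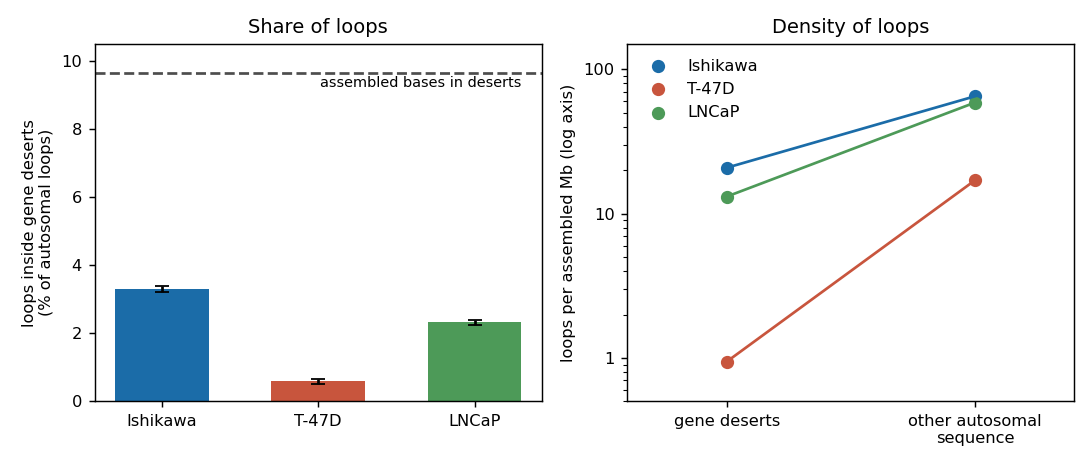
Left, bars give the percent of autosomal loops of each list that lie in gene deserts, with 95% Wilson intervals, and the dashed line gives the percent of assembled autosomal bases in deserts. Right, loops per assembled Mb inside and outside deserts on a log axis, where loops with only 1 end in a desert count as outside. All 3 bars lie below the 9.65% line, and T-47D falls the most, from 17.1 to 0.942 loops per Mb.

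The share also differed within the Ishikawa list. It consists of 4 separately sorted parts that nothing ties to a sample or treatment, and members were 3.67%, 2.59%, 1.42% and 3.44% of the loops of the parts in the order of the list. Members were found in at least 2 parts in 26.2% of cases (25.01% to 27.36%), against 34.1% of other loops (33.9% to 34.3%).

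Loop counts fell towards deserts in steps. Over bins assembled over at least 900 kb, the median bin in Ishikawa held 13 loops in deserts, 26 next to a desert and 48 elsewhere. In LNCaP the medians were 1, 8 and 29, and in T-47D they were 0, 0 and 5. No T-47D loop lay within 206 of 248 such desert bins (83.1%), beside 472 of 2042 bins elsewhere (23.1%). In LNCaP 113 of the 248 lacked a loop (45.6%), beside 160 of 2042 elsewhere (7.8%). In Ishikawa 3 of the 248 lacked a loop (1.21%), beside 15 of 2042 elsewhere (0.73%). The lines thus differed in bins without a loop outside deserts as well. A desert bin had fewer loops than its flanking bins in 217 of 247 cases for Ishikawa, 191 for T-47D and 211 for LNCaP. It had more loops than its flanks in 30, 11 and 27 cases. Above 113.8 loops, the level that 1 in 10 of the other bins exceeded in Ishikawa, there were 9 of 248 desert bins (3.63%), and the same comparison gave 6 (2.42%) in LNCaP (above 125 loops) and 1 (0.403%) in T-47D (above 39).

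Members were spread over nearly all deserts in Ishikawa and gathered in a few in T-47D and LNCaP. The number of members (5388, 244 and 3400) limits how many deserts a list can reach, and equal numbers were not drawn. Bins away from deserts were uneven too. They held a median of 48 and a mean of 63.0 loops in Ishikawa, 5 and 15.6 in T-47D, and 29 and 50.8 in LNCaP. Of 201 assembled deserts, 194 held a member in Ishikawa, 118 in LNCaP and 44 in T-47D. The 5 deserts with the most members held 18.3% of the members of Ishikawa, 45.6% of those of LNCaP and 63.0% of those of T-47D. By read pairs the top 5 held 20.4%, 68.9% and 75.8%. Of these deserts, 34 held members in all 3 lists, 83 in Ishikawa and LNCaP alone, 69 in Ishikawa alone, 8 in Ishikawa and T-47D alone, and 5 in none. Across 189 deserts with at least 500 kb assembled, members per Mb ranked alike only weakly between lists, with Spearman's rho of 0.09 for Ishikawa and T-47D, 0.07 for Ishikawa and LNCaP, and 0.30 for T-47D and LNCaP, given as descriptions because deserts share libraries and base composition.

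**Figure D2:**
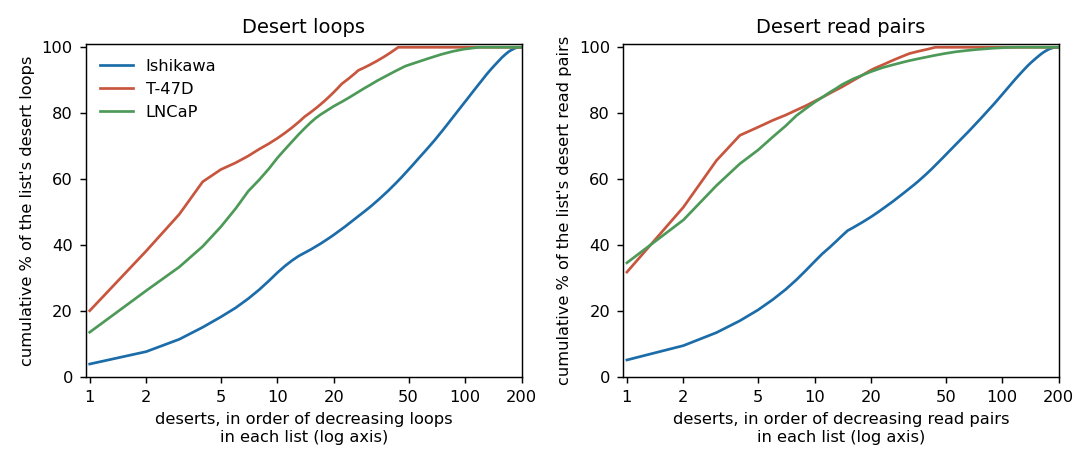
Deserts are ordered along a log axis by their loops (left) or read pairs (right) in each list, and curves give the cumulative percent of the list's desert loops or read pairs. The T-47D and LNCaP curves rise early, to 63.0% and 45.6% of loops at 5 deserts, and the Ishikawa curve late, to 18.3%.

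In T-47D the leading desert was the bin next to GATA3, which encodes a transcription factor of luminal breast cells. At chr10:9000001-10000000, between GATA3 and CELF2, T-47D had 49 members with 656 read pairs, Ishikawa had 14 with 59, and LNCaP had none. Relative to each list's total read pairs, with counts below 3 set to 3, this was at least 64.4-fold above the mean of the other lists. The desert at chr5:116000001-118000000, between SEMA6A, a guidance signal of the semaphorin family, and DTWD2, had 44 T-47D members and 405 read pairs, 52 and 235 of Ishikawa, and 13 and 69 of LNCaP, a ratio of 8.77. The bin beside MYC at chr8:129000001-130000000, crossed by the lncRNA gene PVT1, had 27 T-47D members, 26 of Ishikawa and 16 of LNCaP, and 291, 137 and 67 read pairs. At chr11:90000001-91000000, between CHORDC1 and FAT3, 24 T-47D members stood beside 4 of Ishikawa and 2 of LNCaP, a ratio of 44.4 by read pairs.

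In LNCaP the leading deserts were on chromosomes 3, 5 and 11. The desert at chr5:163000001-166000000, between MAT2B and the teneurin adhesion gene TENM2, had 463 members with 7435 read pairs in LNCaP, 31 with 123 in Ishikawa and 4 with 15 in T-47D, a ratio of 51.9. The bin at chr3:175000001-176000000 had 427 members with 19863 read pairs in LNCaP, 149 with 882 in Ishikawa and 4 with 19 in T-47D. Its bases lie to 52.8% in the body of NAALADL2, a long gene for a membrane protein of the peptidase family whose start is outside the bin. The bin at chr11:23000001-24000000, before the leucine zipper gene LUZP2, had 243 members and 5969 read pairs in LNCaP, 10 and 45 in Ishikawa and none in T-47D, at least 129.5-fold above the mean of the others. Behind LUZP2, the bin at chr11:25000001-26000000 had 79 members in LNCaP, 5 in Ishikawa and none in T-47D. The pair is also joined: 8 of the 9 LNCaP members that joined separate deserts connected these bins over 1609 to 1999 kb, with at most 12 read pairs.

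In Ishikawa the leading deserts included bins near the ends of chromosomes 8, 10 and 18. The bin at chr10:132000001-133000000, between the glutaredoxin gene GLRX3 and TCERG1L, had 216 members and 1542 read pairs in Ishikawa and 1 member of 3 read pairs in each of the other lists, a ratio of 288.3. The desert at chr10:109000001-111000000, after the sorting receptor gene SORCS1, had 202 Ishikawa members, 3 LNCaP members and no T-47D member. The bin at chr18:75000001-76000000, between the galanin receptor gene GALR1 and SALL3, had 196 members and 1278 read pairs in Ishikawa and none elsewhere, at least 238.9-fold above the others. The bin at chr8:5000001-6000000, between CSMD1 and MCPH1, had 145 members in Ishikawa and none elsewhere, at least 158.0-fold.

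The 3 longest assembled deserts held unlike numbers of members, and a relation of count to length over all deserts was not tested. The longest assembled desert, chr4:31000001-36000000 between PCDH7 and ARAP2, had 50 Ishikawa members and 1 in each other list. The desert at chr4:179000001-183000000 between AGA and TENM3 had 201 Ishikawa members, 3 T-47D members and no LNCaP member. The third, chr4:58000001-62000000 between IGFBP7 and ADGRL3, had 31, 0 and 10.

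Bins were also compared across the genome by the percent of all read pairs of a list that lay in loops within the bin, over bins with at least 20 read pairs in either list of a pair, and a bin was called at 4-fold. Ishikawa exceeded T-47D in 153 of 226 desert bins (67.7%, interval 61.3% to 73.5%), beside 47.6% of all 2613 bins tested, and T-47D exceeded Ishikawa in 6 (2.65%), beside 6.01%. Ishikawa exceeded LNCaP in 163 of 233 (69.96%, 63.8% to 75.5%), beside 40.1% of all bins, and LNCaP exceeded Ishikawa in 23 (9.87%), beside 7.93%. LNCaP exceeded T-47D in 41 of 84 (48.8%, 38.4% to 59.3%), beside 27.5%, and T-47D exceeded LNCaP in 10 (11.9%, 6.60% to 20.5%), beside 11.5%. The minimum of read pairs bears on these counts, since 211 of the 226 desert bins passed it through Ishikawa alone and 4 through T-47D alone, 155 of the 233 through Ishikawa alone and 11 through LNCaP alone, and 69 of the 84 through LNCaP alone and 6 through T-47D alone. A bin that passed through 1 list is a bin where that list is high, so the shares describe the bins and are not read as a difference from bins at large.

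The strongest members differed in size by line. In LNCaP the strongest joined chr3:175189402-175218577 and chr3:175251619-175282627 within NAALADL2 with 2184 read pairs, and the next joined the former anchor to chr3:175042012-175072545 with 1737 and to chr3:175019921-175038928 with 1162. None of these had a matching loop in Ishikawa or T-47D. Of all LNCaP member read pairs (57302), 17352 lay in 275 members inside the body of NAALADL2. In T-47D the strongest joined chr10:9238406-9247314 to chr10:9249945-9251667 with 68 read pairs and to chr10:9229099-9230553 with 64. All 3 anchors were intergenic, the first of them 1142 kb and the last 1129 kb from the GATA3 start. The third was inside PVT1, between chr8:129144996-129146777 and chr8:129150537-129156193, with 56 read pairs. In Ishikawa the satellite anchor shown above was joined to chr10:42597294-42602418 with 428 read pairs, present in all 4 parts. The next, with 98 and 90 read pairs, lay at chr2:91777175-91818495 over the lncRNA gene LSP1P5, also beside a centromere. Bins with unassembled bases or next to one held 19.1% of the members of Ishikawa, 8.20% of those of T-47D and 3.56% of those of LNCaP.

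Member anchors formed larger hubs in LNCaP. The median number of member partners of an anchor was 3 in LNCaP, 2 in Ishikawa and 1 in T-47D. At least 10 partners were found for 208 of 1217 LNCaP anchors, 72 of 4774 Ishikawa anchors and 7 of 208 T-47D anchors. The whole lists differed too. LNCaP had 146350 autosomal loops on 42254 anchors, Ishikawa 163435 on 91995 and T-47D 41626 on 19075. Partners of anchors outside deserts are not given here, so hub size is not read as a trait of deserts. The LNCaP anchor at chr5:164624281-164641335, intergenic and 1690 kb from MAT2B, had 57 partners and 2027 read pairs. The T-47D anchor at chr5:117344111-117347615 had 18 partners and 219 read pairs, and the anchor beyond GATA3 had 13 and 385. The Ishikawa anchor at chr12:17213792-17238187, 462.5 kb from the LIM domain gene LMO3, had 24 partners and 205 read pairs, and it covered the start of the lncRNA gene ENSG00000287455.

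Deserts were not closed to genes. Loops with a single end in a desert numbered 2290 in LNCaP, 1011 in Ishikawa and 229 in T-47D, so that of the loops touching a desert 84.2% stayed inside in Ishikawa (83.3% to 85.1%), 51.6% in T-47D (47.1% to 56.1%) and 59.8% in LNCaP (58.5% to 61.02%). On 1 chromosome, 39.9% of the outward loops of T-47D (87 of 218) reached a protein-coding promoter, the 500 bp around a start site, against 17.0% in LNCaP (390 of 2290) and 6.43% in Ishikawa (65 of 1011). Anchors outside deserts gave the same order, at medians of 1.50, 9.003 and 21.7 kb from a coding start (T-47D, LNCaP, Ishikawa). The share of other loops that reach a promoter is not given here, so these shares are not read as a trait of deserts. In T-47D the gene with the most desert anchors was GATA3, with 14 anchors and 469 read pairs, of which 219 came from the hub at chr10:9238406-9247314. GATA3 had no desert anchor in Ishikawa or LNCaP, but its promoter had only 1 distal anchor of any kind in Ishikawa, with 7 read pairs, and none in LNCaP. Next in T-47D were CITED2, a transcriptional coregulator, with 8 anchors, NAALADL2 with 8, MYC with 5 and the adhesion gene NCAM2 with 5.

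In LNCaP, NCAM2 had 34 desert anchors with 785 read pairs, LUZP2 30 with 372, NAALADL2 29 with 1573, the secreted protease gene ADAMTS1 15 with 148 and CITED2 15 with 121. The strongest NCAM2 anchor, chr21:23291950-23295863 with 109 read pairs, overlapped the strongest one in T-47D, chr21:23292411-23295863 with 9. The strongest ADAMTS1 anchor, chr21:29904506-29926913 with 49 read pairs at 1698 kb, lay over the lncRNA gene LINC00161. In Ishikawa, NAALADL2 had 11 desert anchors with 38 read pairs, the myelin gene MBP 4 with 16, SOX9 4 with 12, the adhesion gene ALCAM 3 with 9 and the chromatin remodelling gene ARID1B 3 with 9. For these 5 genes no link from a desert exceeded 7 read pairs in Ishikawa.

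Of 9 genes known from other work for enhancers in a neighbouring desert (DACH1, SOX9, BMP2, IRX3, IRX5, TBX3, OTX2, MYC and SOX2), 2 had a link to a desert anchor in any list. SOX9 had its 4 links in Ishikawa, at 3 read pairs each and 644.5 to 670.8 kb for the strongest. MYC had 14 desert anchors with 105 read pairs in LNCaP and 5 with 28 in T-47D, and the strongest lay over PVT1 at 295.6 and 402.0 kb. Its distal anchors of any kind numbered 72 with 2160 read pairs in LNCaP and 11 with 79 in T-47D. The 7 other genes had none, although TBX3 had 40 distal anchors with 2027 read pairs in LNCaP outside desert bins. For most of them the bins left little room for a link, as no desert bin lay near BMP2, IRX3, IRX5, TBX3, OTX2 or SOX2. The closest began at chr16:59000001, and IRX5 lies at chr16:54964777-54968397. Spans up to 3000 kb took in 99.93% of other Ishikawa loops, 99.63% in T-47D and 100% in LNCaP. DACH1, BMP2 and OTX2 had no distal anchor in any list. The count of genes with links is therefore not read as a result about desert enhancers.

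Member anchors lie by rule in bins without a coding start, so a large distance from one follows largely from the rule. The median distance was 731.2 kb in T-47D, 698.3 kb in LNCaP and 627.5 kb in Ishikawa. Anchors outside deserts had medians of 1.50, 9.003 and 21.7 kb, and the distance of desert sequence at large is not given here. Member anchors were intergenic in 65.8% of cases in LNCaP, 64.5% in Ishikawa and 50.5% in T-47D, and within lncRNA genes in 30.3%, 32.6% and 44.7%. Anchors outside deserts were intergenic in 18.0%, 28.1% and 15.4%, and within lncRNA genes in 10.1%, 13.4% and 9.04%. Each anchor had 1 class and coding genes came first, so both shares rise where coding genes are scarce. The shares of desert sequence within lncRNA genes or at their starts are not given here. A lncRNA start was under 3.50% of member anchors in Ishikawa (3.01% to 4.06%), 6.25% in T-47D (3.69% to 10.4%) and 4.52% in LNCaP (3.49% to 5.84%). By read pairs the leading lncRNA genes were LINC00992 in T-47D (9 members, 100 read pairs), ENSG00000288104 inside NAALADL2 in LNCaP (50 members, 9086 read pairs), ENSG00000260217 (42 and 1685) and LINC00161 (32 and 1528) in LNCaP, and ENSG00000287455 in Ishikawa (24 and 205). The coding genes that reach into deserts and held the most member anchors were GPC6, a heparan sulphate proteoglycan gene, with 32 anchors in Ishikawa, NAALADL2 with 29, CNTNAP5 with 26, the receptor phosphatase gene PTPRD with 14 and TCERG1L with 6. In LNCaP the gene with the most was NAALADL2 with 32, ahead of GPC6 with 5, and in T-47D NAALADL2 had 6.

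The number of read pairs behind a member differed by line. Members at the minimum of 3 read pairs were 49.5% in Ishikawa (48.1% to 50.8%) against 45.4% of other loops, 34.8% in T-47D (29.1% to 41.0%) against 29.6%, and 23.0% in LNCaP (21.6% to 24.4%) against 25.9%. The mean was 5.47 read pairs against 6.39 in Ishikawa, 8.45 against 8.39 in T-47D and 16.9 against 12.0 in LNCaP. The T-47D and LNCaP means rested on a few deserts: without the 5 deserts with the most members they were 5.51 and 9.71, both below the means of other loops, and 49.5% of T-47D members (39.4% to 59.5%) and 27.3% of LNCaP members (25.3% to 29.4%) were then at 3 read pairs. In Ishikawa the mean without its 5 was 5.33.

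Spans also differed by line. Both anchors of a member lie in deserts, most of which are a single bin, so the rule leaves out long loops, and members are also compared with other loops when both kinds have their anchors in 1 bin. Ishikawa members had a median span of 27.3 kb (26.4 to 28.3) against 37.4 kb for other loops, and they were shorter on 20 of the 21 autosomes with at least 20 members. Within 1 bin, where 5315 of them lay, the median was 27 kb (26.0 to 28.0) against 33.2 kb (32.9 to 33.5), and they were shorter on 19 of 21 autosomes. T-47D members had 72.0 kb (55.1 to 94.8) against 86.3 kb, an interval that holds the latter value, and within 1 bin 56.3 kb (43.9 to 75.1) against 67.6 kb, which again lies in the interval. LNCaP members had 154.3 kb (145.7 to 164.8) against 112.9 kb, and over all members they were shorter on 9 of 16 autosomes and longer on 7. Within 1 bin they had 127.1 kb (118.6 to 135.9) against 82.8 kb, and they were shorter on 8 of 16 autosomes and longer on 8. Without the 5 deserts that held the most LNCaP members the median was 116.5 kb (105.9 to 129.2) against 113.7 kb, a value inside the interval, and within 1 bin it was 97.5 kb (88.2 to 107.2) against 82.8 kb. With all deserts kept, the gap in LNCaP grew with support. Classes of support were not computed without the 5 leading deserts, which held 45.6% of the LNCaP members. At 3 read pairs members had a median of 189.4 kb (170.4 to 212.5) against 191.3 kb, a value inside the interval. At 4 to 9 read pairs they had 163.3 kb against 121.8 kb, and at 10 or more 122.4 kb against 52.0 kb. The LNCaP list holds no span outside 5 kb to 2 Mb, a limit the other lists do not share.

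**Figure D3:**
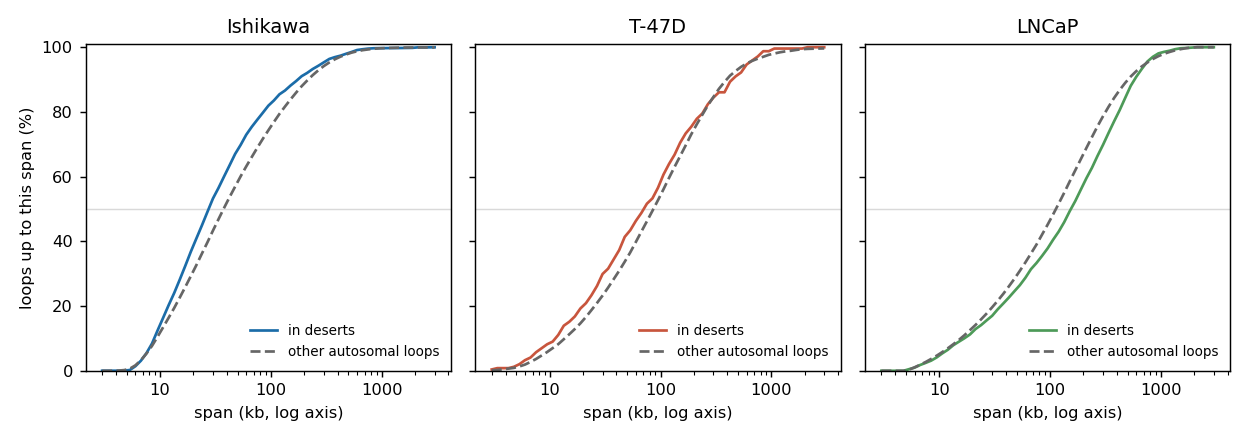
Curves give the percent of loops up to each span (log axis, kb) for loops in deserts (solid) and other autosomal loops on 1 chromosome (dashed). The desert curve lies to the left in Ishikawa, where the medians are 27.3 and 37.4 kb, and to the right in LNCaP, where they are 154.3 and 112.9 kb.

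Few members were found in another line. A loop counted as found when both anchors overlapped, by at least 1 bp, those of a single loop in the list compared. Of the 244 T-47D members, 9 (3.69%, 1.95% to 6.86%) were found in LNCaP, against 39.0% of other T-47D loops and 38.8% of those drawn to the same spans. In Ishikawa 4 (1.64%, 0.639% to 4.14%) were found, against 10.1%. Of the 3400 LNCaP members, 97 (2.85%, 2.34% to 3.47%) were found in Ishikawa against 6.62%, and 9 (0.265%, 0.139% to 0.502%) in T-47D against 10.6%. Of the 5388 Ishikawa members, 83 (1.54%, 1.24% to 1.91%) were found in LNCaP against 5.38%, and 4 (0.0742%, 0.0289% to 0.191%) in T-47D against 2.27%. The intervals of members lay below the values of other loops in each of the 6 directions with the bins as defined. Each pair of lists was read both ways, so the directions are not independent. Members also share anchors and deserts, so these intervals describe the lists and do not test a difference. The other loops differ from members in kind. Outside deserts 57.5% of T-47D, 43.2% of LNCaP and 32.85% of Ishikawa anchors lay over an exon of a protein-coding gene. Among member anchors the shares were 0.962%, 1.15% and 0.440%. Loops were not matched for this, and its part in the sharing was not tested. With bins moved by 500 kb, 7.73% of T-47D members (5.41% to 10.9%) were found in Ishikawa, against 10.1% of other T-47D loops, a value inside that interval.

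Single anchors were compared in the same way, and since a loop needs both anchors to overlap, these shares cannot be below those of the loops. Of T-47D member anchors, 21.6% (16.6% to 27.7%) overlapped an LNCaP anchor, against 61.5% of T-47D anchors outside deserts, and 21.2% (16.2% to 27.2%) overlapped an Ishikawa anchor, against 51.5%. Of LNCaP member anchors 20.8% (18.6% to 23.2%) overlapped an Ishikawa anchor, against 42.2%, and 4.11% (3.13% to 5.38%) a T-47D anchor, against 27.6%. Of Ishikawa member anchors 5.34% (4.74% to 6.02%) overlapped an LNCaP anchor, against 19.4%, and 0.985% (0.741% to 1.31%) a T-47D anchor, against 10.7%. Wide anchors overlap more readily, and the median anchor of members was 5.42 kb in Ishikawa, 3.33 kb in LNCaP and 2.53 kb in T-47D.

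The T-47D members found in LNCaP were spread over 8 deserts. They included loops beside MYC (29 read pairs in T-47D and 3 in LNCaP), between SEMA6A and DTWD2 (27 and 12) and beside NCAM2 (7 and 19). At chr18:41368496-41459500, between SYT4 and SETBP1, a loop had 4 read pairs in T-47D and 44 in LNCaP. Of the 97 LNCaP members found in Ishikawa, 51 (52.6%) lay in the NAALADL2 bin and 14 at chr3:166000001-167000000 between BCHE and ZBBX. No T-47D member was found in both other lists, 0 of 244, which allows a share of up to 1.23% (3 loops), and no LNCaP member was, 0 of 3400, which allows up to 0.0882% (3 loops). In Ishikawa 1 was, at chr2:243038673-243049839 near the end of the long arm, with 16 read pairs, beside 136 for LNCaP and 20 for T-47D. For counts of 0, here and below, the limit given is 3 loops of the total and not the Wilson bound. The Wilson bounds were higher, at 1.55% for T-47D and 0.113% for LNCaP.

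**Figure D4:**
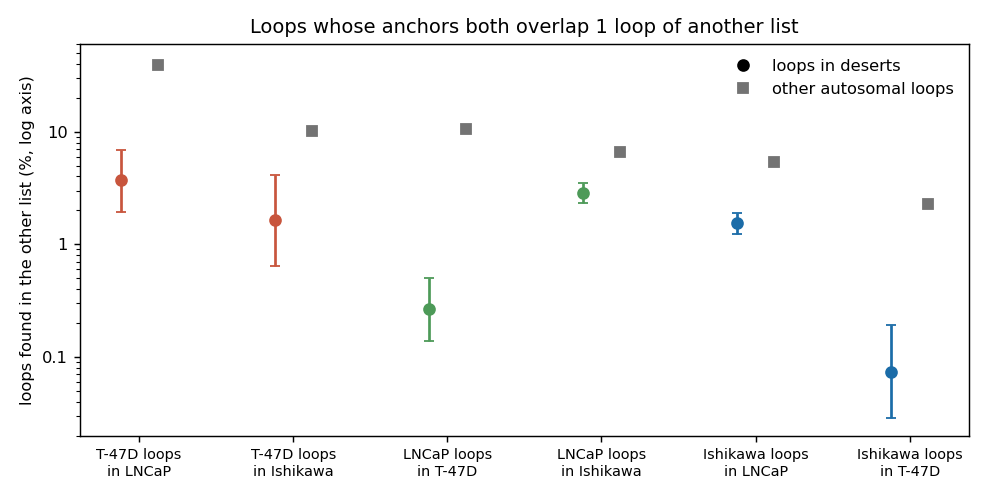
Points give the percent of loops of the first named list that were found in the second, on a log axis, for loops in deserts (circles) and other autosomal loops (squares), with 95% Wilson intervals that are smaller than the symbol where not seen. Circles lie below squares in each of the 6 directions, as for T-47D loops in LNCaP at 3.69% and 39.0%.

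The sequence at member anchors differed between lines in base composition and in the FOXA motif. FOXA proteins open compact chromatin for hormone receptors in breast and prostate cells. In windows of 1 kb at anchor midpoints, the FOXA motif was in 28.8% of 1217 LNCaP windows (26.4% to 31.4%) and 26.0% of 208 T-47D windows (20.5% to 32.3%), against 17.5% of 258932 windows over all assembled deserts (17.4% to 17.7%). Ishikawa member anchors held it in 16.8% of 4774 windows (15.8% to 17.9%). Median G and C was 34.9% in LNCaP, 37.5% in T-47D and 38.6% in Ishikawa, against 35.9% over deserts. Windows were not matched for base composition, so its part in the FOXA values was not tested. Outside deserts the FOXA motif was at 21.8%, 12.7% and 13.8% of anchors in LNCaP, T-47D and Ishikawa.

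The GATA motif was in 68.1% of LNCaP windows (65.5% to 70.7%), 63.0% of T-47D windows (56.2% to 69.2%) and 58.3% of Ishikawa windows (56.9% to 59.7%), against 63.3% of desert windows. The androgen receptor unit, which occurs often by length alone, was in 66.3% of LNCaP windows (63.6% to 68.9%) against 62.0% of desert windows, 61.1% in T-47D and 61.3% in Ishikawa. The AP-1 motif was in 32.6% of LNCaP windows (30.1% to 35.3%), 32.3% of Ishikawa windows (31.0% to 33.6%) and 25.0% of T-47D windows (19.6% to 31.3%), against 29.6%. Rarer motifs were too few to compare. The estrogen receptor palindrome, GGTCA, any 3 bases and TGACC, was in 4 Ishikawa windows and in no T-47D or LNCaP window, and the androgen receptor palindrome, AGAACA, any 3 bases and TGTTCT, was in 1 window each of Ishikawa and LNCaP. The CTCF core, CCA, any 2 bases, AGG, any base and GGC, was in 0.796% of Ishikawa windows (0.581% to 1.09%) against 0.424% of desert windows, and in 0.657% of LNCaP windows (0.334% to 1.29%). Windows with at least 10 CpG made up 27.9% of the T-47D, 23.3% of the Ishikawa and 11.3% of the LNCaP windows, against 15.8% of desert windows and 78.2%, 48.2% and 52.8% of the windows at anchors outside deserts.

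**Figure D5:**
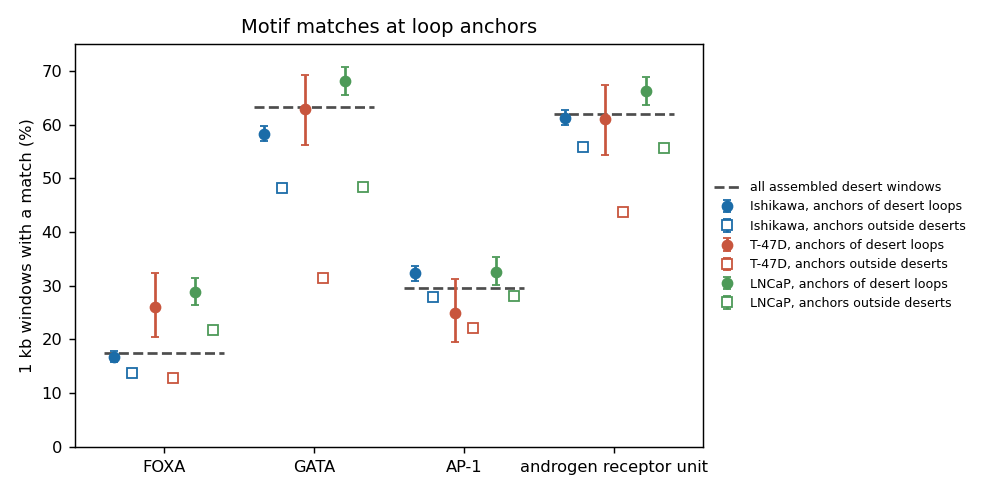
Percent of 1 kb windows at anchor midpoints with a motif match, for anchors of desert loops (filled circles) and anchors outside deserts (open squares) of each list, with 95% Wilson intervals, and for all assembled desert windows (dashed lines). In the FOXA column the T-47D and LNCaP circles stand at 26.0% and 28.8%, above the line at 17.5%, and the Ishikawa circle at 16.8%.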

How the data were processed

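H3K27ac HiChIP was analysed from 1 deposited loop list per cell line. Per the labels and the methods, the authors aligned reads to hg19 with HiC-Pro, called loops with hichipper, and kept loops of at least 3 reads at a set false discovery rate; aligner versions are not given in the sources used here. The deposited values are counts of read pairs that join the anchors of a loop, not scaled for depth, and autosomal loops summed to 1777734 read pairs in LNCaP, 1039862 in Ishikawa and 348832 in T-47D. Rows of the 4 Ishikawa parts were summed by anchor pair.

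Start sites were those of every transcript of 19229 protein-coding genes on the 22 autosomes (GENCODE 44 lifted to GRCh37). Members, sharing, spans, bins and motifs were computed in Python 3.11.15 with numpy 2.4.6, pandas 2.3.3, scipy 1.17.1 and pysam 0.24.0. Scripts were tested on simulated loops and planted motifs. A desert was a run of adjoining bins. Deserts, loops, anchors and genes were named by rank (the 3 deserts with the most members or the highest ratio per list, the 3 longest, the 3 strongest members, the anchor with the most partners, the 5 leading lncRNA genes, gene bodies and linked genes), beside a list of genes known for desert enhancers, of which 9 are reported; 1 result is not reported here. Hubs and loops named besides these, among them those found in several lists, were chosen after their values were seen. The members and lists were chosen with earlier results of these data known. With pooled lists no test was run. Alternatives varied support, depth, bins, start sites, unassembled sequence, chromosomes, parts, overlap and spans.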

Additional observations from a re-analysis of the deposited data

Results flagged for a closer look

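Pairs of an anchor with itself, which were left out of the loops, also fell in deserts. They held 21050 read pairs at 2386 desert anchors in Ishikawa, 4.46% of all such read pairs of that list, and 2661 read pairs at 199 desert anchors in T-47D, 0.872%. The LNCaP list has no such pairs, so the 3 lists could not be compared, and these pairs have no control.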

How the results depend on the processing

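The lists are pooled, so no sample could be left out, depth and line cannot be told apart, and the T-47D values rest on 244 members. The cause of each change below was not tested. In 35 of 35 alternatives a smaller share of members than of other loops was found in another list. With loops of at least 5 read pairs the share of loops in deserts was 2.83% in Ishikawa and 2.51% in LNCaP, median spans were 16.5, 49.6 and 140.7 kb (Ishikawa, T-47D, LNCaP), and 1.81% of LNCaP members were found in Ishikawa. At 10 read pairs the shares were 2.13%, 0.673% and 2.69%, the spans 14.0, 40.6 and 122.4 kb, and 0.924% were found; LNCaP then had the largest share, and the T-47D interval (26.99 to 101.2 kb) held the median of other T-47D loops (29.4 kb). With lists thinned to 348832 read pairs the shares were 2.75% in LNCaP and 2.62% in Ishikawa, the spans 115.3 and 16.6 kb, and 0.820% of T-47D members were found in LNCaP and 1.51% of LNCaP members in Ishikawa.

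With bins moved by 500 kb the shares were 0.870% in T-47D and 1.78% in LNCaP, the LNCaP span 132.3 kb, and 7.73% of T-47D members were found in Ishikawa (other loops 10.1%, inside the interval of 5.41% to 10.9%) and 2.18% of LNCaP members. Bins with no start of any gene held 1.20 assembled Mb and 0.00122% of Ishikawa loops (median 23.6 kb), 0 of 41626 in T-47D (up to 0.00721%) and 0 of 146350 in LNCaP (up to 0.00205%), so their T-47D and LNCaP spans and every share found in another list could not be computed. Without bins at unassembled bases 2.67% of Ishikawa loops and 2.24% of LNCaP loops were members, and the Ishikawa span was 26.3 kb. Without the chromosome with the most members (10, 5 and 3) the shares were 3.14%, 0.465% and 2.05%, the Ishikawa span 26.1 kb, and 1.04% of LNCaP members were found in Ishikawa. Ishikawa loops in at least 2 parts gave 2.55%, 16.0 kb and 1.35%. Spans of 20 kb to 1 Mb gave medians of 52.2, 102.0 and 184.9 kb. With 50% overlap of both anchors 1.64% of T-47D members were found in LNCaP, 0 of 244 in Ishikawa (up to 1.23%), and 0.0588% of LNCaP members in Ishikawa.

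These alternatives were chosen after seeing the data. With the start of each gene in place of each transcript the shares were 5.11%, 0.786% and 2.91% and the spans 29.1 kb in Ishikawa and 144.8 kb in LNCaP. Without the desert with the most members the shares were 3.16%, 0.468% and 2.01% and the LNCaP span 138.6 kb. Without the 5 such deserts the shares were 2.69%, 0.219% and 1.26%, the spans 25.4, 47.4 and 116.5 kb, and 7.69% of T-47D members were found in LNCaP and 1.90% of LNCaP members in Ishikawa. With both anchors in 1 bin the LNCaP span was 127.1 kb. Leaving out bins with immune receptor segments moved no value past its interval. No paired analysis was possible because each line is 1 pooled list.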
